A study of Dendrobium officinale with 6 samples.

Results

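Strictosidine synthase-like and secologanin synthase-like unigenes of *Dendrobium officinale* were compared between protocorm-like bodies (PLBs) and leaves. A unigene is a transcript contig of the de novo assembly. The members were the unigenes whose NR, SwissProt or KEGG description contained the words strictosidine synthase or secologanin synthase, which gave 55 of 157901 unigenes. Of these, 29 were strictosidine synthase-like and 26 were secologanin synthase-like, and none was both. The 3 PLB libraries came from tissue that was induced from seeds and grown for 60 d on an MS-based medium with 0.5 mg/L NAA, 1.0 mg/L 6-BA, 1.5 to 2.0 mg/L 2,4-D and 100 g/L potato juice. The culture was kept at 70% relative humidity and 1600 lx with 16 h of light and 8 h of dark. The 3 leaf libraries came from the original plant, which was grown in a greenhouse and not in culture. Growth regulators, medium, light regime and tissue therefore differed together between PLBs and leaves and cannot be told apart. The labels give 3 biological replicates per tissue and do not say whether they came from separate plants or culture vessels, so p-values measure the spread between these samples.

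Strictosidine synthase joins tryptamine, made from tryptophan, with the iridoid secologanin to form strictosidine, the common precursor of terpenoid indole alkaloids, as known from Catharanthus and Rauvolfia. Secologanin synthase is the cytochrome P450 CYP72A1 of Catharanthus, which opens a ring of loganin to give secologanin. Both belong to larger families. Strictosidine synthase-like proteins also occur in Arabidopsis, which makes no strictosidine, and CYP72A enzymes of other plants oxidise gibberellins and triterpenes. A description that names either enzyme is therefore a statement of sequence likeness, and activity was not measured here.

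The annotation of the members reflected this. Among the strictosidine synthase-like unigenes, 28 matched in NR and 27 in SwissProt, where the best hits were STRICTOSIDINE SYNTHASE-LIKE (SSL) proteins. In KEGG, 28 of the 29 carried the ortholog group of adipocyte plasma membrane-associated protein, an animal relative of strictosidine synthase, and 31 unigenes did so in all. The KEGG ortholog of strictosidine synthase itself was assigned to 0 of the 157901 unigenes. The GO term strictosidine synthase activity, in contrast, was assigned to 28 unigenes, all of them members. Per the paper, GO terms were derived from the NR annotation. The Pfam strictosidine synthase domain was found in 18 unigenes, all of them members. Among the secologanin synthase-like unigenes, all 26 matched in NR, and the first NR name was a CYP72A-type cytochrome P450 in 12 and secologanin synthase in 14. SwissProt gave secologanin synthase as best hit for only 2 of them, CL3508.Contig9 and Unigene9276. The Pfam cytochrome P450 domain was found in 21. The best NR hit came from *Dendrobium catenatum* for 28 strictosidine synthase-like and all 26 secologanin synthase-like unigenes, and from *Phalaenopsis equestris* for CL12217.Contig2.

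Members were also grouped by the *D. catenatum* gene that their nucleotide hit names, called a gene model here. The 29 strictosidine synthase-like unigenes fell into 10 gene models and the 26 secologanin synthase-like unigenes into 5, with 1 unigene without a model. No genome position goes with these unigenes. Median length was 1459 bases (200 to 6268) in the first family and 1931 bases (284 to 3817) in the second, against 817 bases over all unigenes. Unigenes of 1 cluster or gene model can share sequence, and reads that matched several unigenes were divided among them. Unigene sequences were not used here, so their overlap was not measured. Of the expected counts above 0, 73.2% were not whole numbers in the first family and 91.3% in the second. The members of 1 gene model can therefore not be taken as independent measurements.

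Library totals were 17697113 to 18219217 expected counts in PLBs and 17602153 to 18408442 in leaves. Summed over 55 unigenes, chlorophyll a-b binding proteins, which mark photosynthetic tissue, had 596 to 1769 FPKM in PLBs and 13747 to 16540 FPKM in leaves. PLB replicate 3 was the lowest, with 596 FPKM against 1769 and 1705 FPKM in PLB replicates 1 and 2. The small chain of ribulose bisphosphate carboxylase had 199.7 to 289.6 FPKM in PLBs and 4129 to 4721 FPKM in leaves. For both markers all PLB libraries thus lay far under all leaf libraries, and their part in the values given here was not tested. In tissue samples of this kind, fewer cells of a type and less RNA per cell cannot be told apart. A unigene was called where its adjusted p in edgeR's quasi-likelihood test did not exceed 0.001 and the tissues differed at least 2-fold. By this rule 39.7% of the 70383 unigenes tested were called, 16.8% higher in PLBs and 22.9% lower in PLBs. With 0.05 as the limit and no minimum difference, 73.0% of unigenes, 72.5% of clusters and single unigenes and 72.4% of gene models would pass.

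To show which sequence stood for strictosidine synthase (STR) in the study's RT-qPCR, the primers for CL12892.Contig2 are given 5′ to 3′. They cannot be placed on the contig, whose sequence was not used here.
STR forward primer: ggtgcggttcatggatcaggtg
STR reverse primer: ccatcccaaaccacaacccttcc

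Of the 29 strictosidine synthase-like unigenes, 20 passed the filter on low counts and were tested. In PLBs, 6 were higher and 9 were lower than in leaves, and 5 were not called. The share called was 75.0%, against the 39.7% of all unigenes, and the median log2 fold change was -1.53 against 0.00 over all unigenes. Fewer members were called in fits with 1 library left out, 8 to 13, with 8 after leaving out any of the leaf libraries and 9 without PLB replicate 2. Calls also became fewer over all unigenes in these fits, 11278 to 17822 in place of 27948.

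Summed over the family, the level hardly differed between the tissues on TMM-scaled counts. The 29 unigenes together had 428, 460 and 426 TMM-scaled CPM (counts scaled to library size) in PLBs and 430, 434 and 429 CPM in leaves. The ranges overlapped, and the log2 ratio of the means was 0.02, a description without a test. Its sign and size depended on the scaling, since the ratio was -0.047 with RLE size factors, 0.34 with library size only and 0.44 for summed FPKM. Summed FPKM did not overlap, with 320.9 to 337.8 in PLBs and 239.7 to 245.4 in leaves. The unigenes that made up the sum differed between the tissues. In PLBs, Unigene887 and CL12892.Contig2 together held 65.0% of the family's counts, and in leaves CL12217.Contig2 alone held 45.5%.

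**Figure D1:**
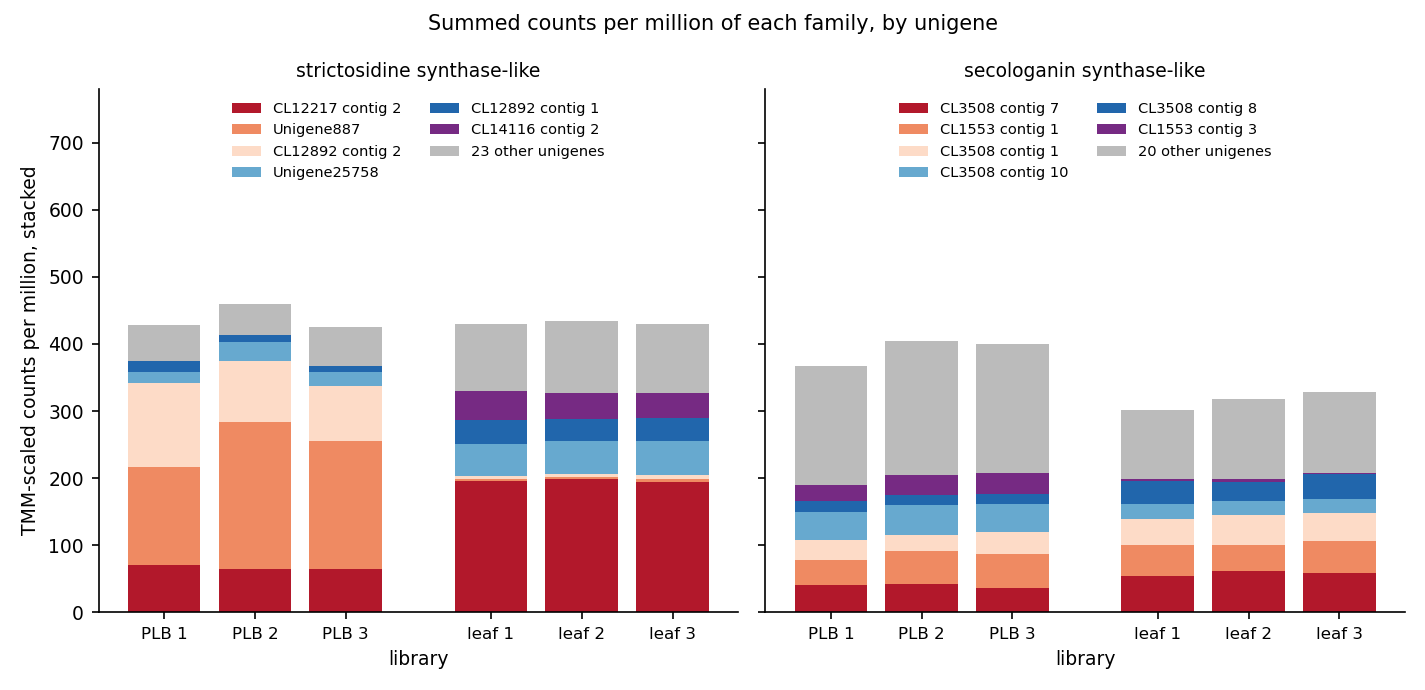
Stacked bars show the TMM-scaled CPM of the strictosidine synthase-like (left) and secologanin synthase-like (right) unigenes in each PLB and leaf library, split into the 6 unigenes with the most counts and the others. The strictosidine synthase-like bars reach 426 to 460 in PLBs and 429 to 434 in leaves but are built from different unigenes, while the secologanin synthase-like bars reach 367 to 405 in PLBs and 301 to 329 in leaves.

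Per length of transcript, the highest mean levels in PLBs were 160 ± 26.1 FPKM for Unigene887, 65.8 ± 16.6 FPKM for CL12892.Contig2 and 46.6 ± 3.75 FPKM for CL12217.Contig2 (SD, n = 3). In leaves they were 111 ± 1.32 FPKM for CL12217.Contig2, 27.3 FPKM for Unigene25758, 26.3 ± 2.51 FPKM for CL14116.Contig2 and 19.6 ± 0.93 FPKM for CL12892.Contig1. In PLBs the libraries of CL12892.Contig2 and CL12217.Contig2 did not overlap, although the lowest of the first (55.01 FPKM) lay close to the highest of the second (50.5 FPKM). In leaves the values of Unigene25758 and CL14116.Contig2 overlapped. A mean of at least 1 FPKM was reached by 13 of the 29 unigenes in PLBs and by 17 in leaves.

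**Figure D2:**
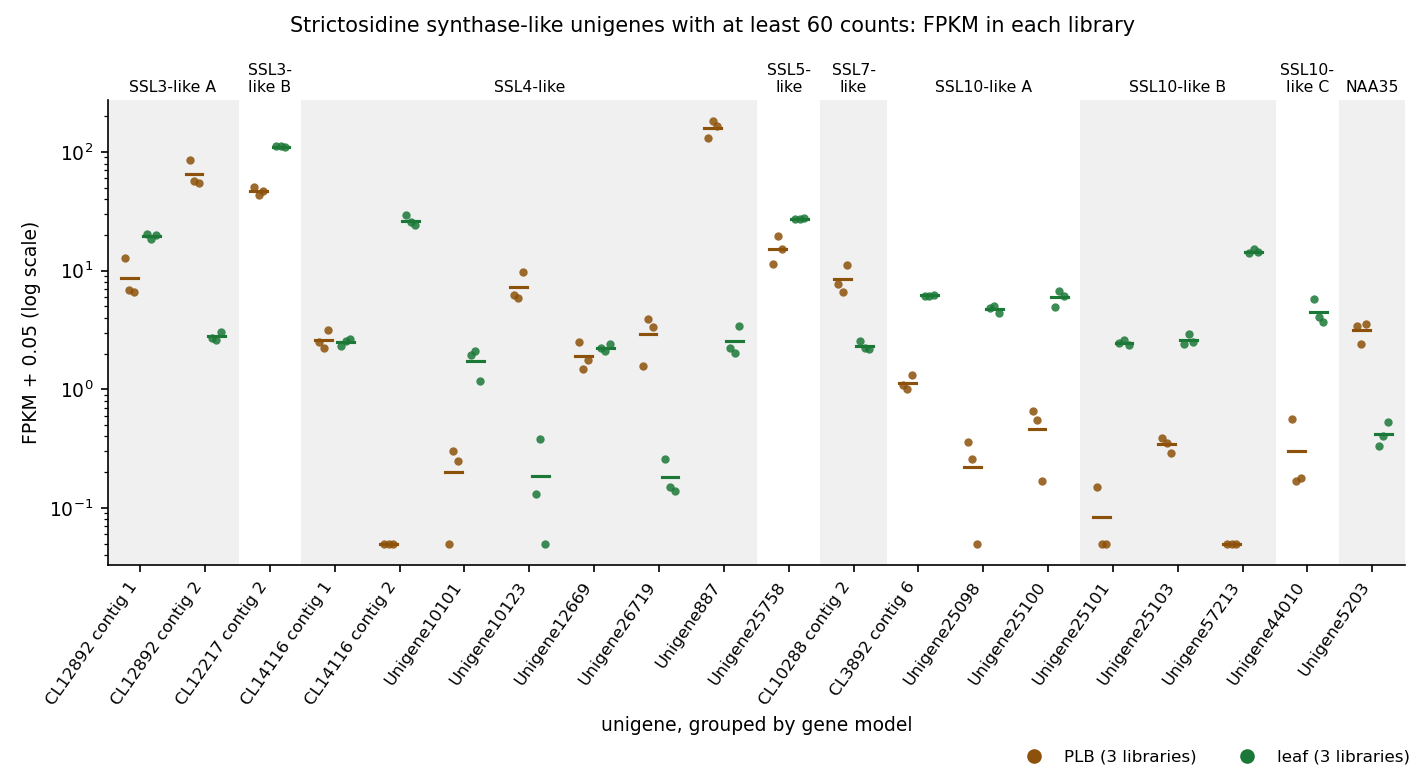
Each point is the FPKM of a library plus 0.05 on a log scale, for the 20 strictosidine synthase-like unigenes with at least 60 counts, PLB left of leaf, with the mean as a bar; unigenes are grouped by gene model, with NAA35 for the NatC subunit. Unigene887 and CL12892.Contig2 lie highest in PLBs, CL12217.Contig2 highest in leaves, and the 7 tested unigenes of the SSL10-like gene models lie lower in PLBs.

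The SSL3-like genes held the STR unigene of the RT-qPCR. The first of them, SSL3-like A (LOC110106759), was represented by both contigs of cluster CL12892, and CL12892.Contig2, the primer target, had 84.8, 57.5 and 55.01 FPKM in PLBs and 2.67, 2.56 and 2.98 FPKM in leaves. All PLB libraries were far above all leaf libraries, and the log2 fold change of PLBs over leaves was 4.27 ± 0.21 (SE, adjusted p = 6.56e-06). Its cluster partner CL12892.Contig1 had 12.7, 6.86 and 6.56 FPKM in PLBs and 20.3, 18.6 and 19.9 FPKM in leaves. Here the PLB libraries were the lower ones, again without overlap. This opposite difference missed the call (log2 fold change -1.49 ± 0.25, adjusted p = 0.00121), although it was called by DESeq2, with RLE size factors, without the filter on low counts, with a filter on mean FPKM and without PLB replicate 1 (adjusted p 1.15e-07 to 0.000983).

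The share of the cluster's counts that went to Contig2 was 87.7% to 89.9% in PLBs and 12.3% to 13.7% in leaves. Summed over both contigs, the cluster had 2925, 1948 and 1813 counts in PLBs and 666, 614 and 636 in leaves. The sum was higher in PLBs, by a log2 fold change of 1.46 ± 0.17 (adjusted p = 0.000114), so the 19.3-fold difference of the primer target was a 2.75-fold difference of the cluster. Without leaf replicate 2 or 3 the cluster was no longer called (adjusted p up to 0.00141).

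The second gene, SSL3-like B (LOC110116084), was represented by CL12217.Contig2, the unigene with the most counts of the family. It had 50.5, 43.0 and 46.4 FPKM in PLBs and 111.5, 112.1 and 109.6 FPKM in leaves. It was lower in PLBs in every library, by a log2 fold change of -1.56 ± 0.12 (adjusted p = 2.70e-05), and stayed called in all 6 fits with 1 library left out. Without this unigene the log2 ratio of the family sum was 0.66. Summed over the gene model, which has 3 further unigenes that are no members, there were 1713, 1451 and 1584 counts in PLBs and 3265, 3295 and 3054 in leaves (log2 fold change -1.33 ± 0.10, adjusted p = 1.04e-05). The 2 SSL3-like genes thus differed in opposite directions between PLBs and leaves.

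The SSL4-like gene (LOC110110422) had 7 unigenes, of which 3 were higher in PLBs, 1 was lower and 3 were not called. Over all unigenes, 16.8% were higher and 22.9% lower. CL14116.Contig2 had 0 counts in every PLB library, against 720, 632 and 576 counts (29.1, 25.5 and 24.3 FPKM) in leaves. With a floor of 3 counts over the PLB libraries it was at least 794-fold lower in PLBs (adjusted p = 8.56e-06). Unigene887 showed the reverse, with 131, 182 and 167 FPKM in PLBs and 2.16, 1.96 and 3.34 FPKM in leaves (log2 fold change 5.71 ± 0.28, adjusted p = 6.40e-06). Both unigenes had the same isoform as first NR hit, and the difference of each was called in all 6 fits with 1 library left out.

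Among the other SSL4-like unigenes, Unigene10123 had 6.16, 5.88 and 9.64 FPKM in PLBs and 0.08, 0.33 and 0.00 FPKM in leaves (log2 fold change 5.34 ± 0.71, adjusted p = 0.000357). Unigene26719 had 1.51, 3.87 and 3.30 FPKM in PLBs and 0.21, 0.10 and 0.09 FPKM in leaves (log2 fold change 4.09 ± 0.59, adjusted p = 0.000547). Both were high in all PLB libraries and close to 0 in leaves, but each was called in only 1 of the 6 fits with 1 library left out, Unigene10123 without leaf replicate 2 and Unigene26719 without PLB replicate 1 (highest adjusted p 0.00293 and 0.00442). Unigene10101 had 0, 5 and 4 counts in PLBs and 41, 44 and 23 counts in leaves and was not called (log2 fold change -3.81 ± 0.78, adjusted p = 0.00306), although DESeq2 and limma on log2(FPKM + 1) called it. The short CL14116.Contig1 had 2.45, 2.17 and 3.10 FPKM in PLBs and 2.28, 2.50 and 2.62 FPKM in leaves, which overlapped. Unigene12669, a contig of 6268 bases whose Pfam domain belongs to a transposase, had 2.46, 1.42 and 1.70 FPKM in PLBs and 2.18, 2.04 and 2.35 FPKM in leaves, which overlapped as well.

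Summed over its 7 unigenes, the SSL4-like gene had 3473, 4636 and 4248 counts in PLBs and 1089, 990 and 959 in leaves. The sum was higher in PLBs in every library (log2 fold change 1.72 ± 0.15, adjusted p = 2.41e-05). Unigene887 held 86.7% to 91.2% of it in PLBs and 4.63% to 7.77% in leaves, while CL14116.Contig2 held 0% in PLBs and 60.1% to 66.1% in leaves. The cluster CL14116, which holds neither Unigene887 nor the other single unigenes, was lower in PLBs instead (log2 fold change -4.89 ± 0.17, adjusted p = 4.95e-07). The direction for this gene thus depended on whether contigs, the cluster or the gene model were counted.

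**Figure D3:**
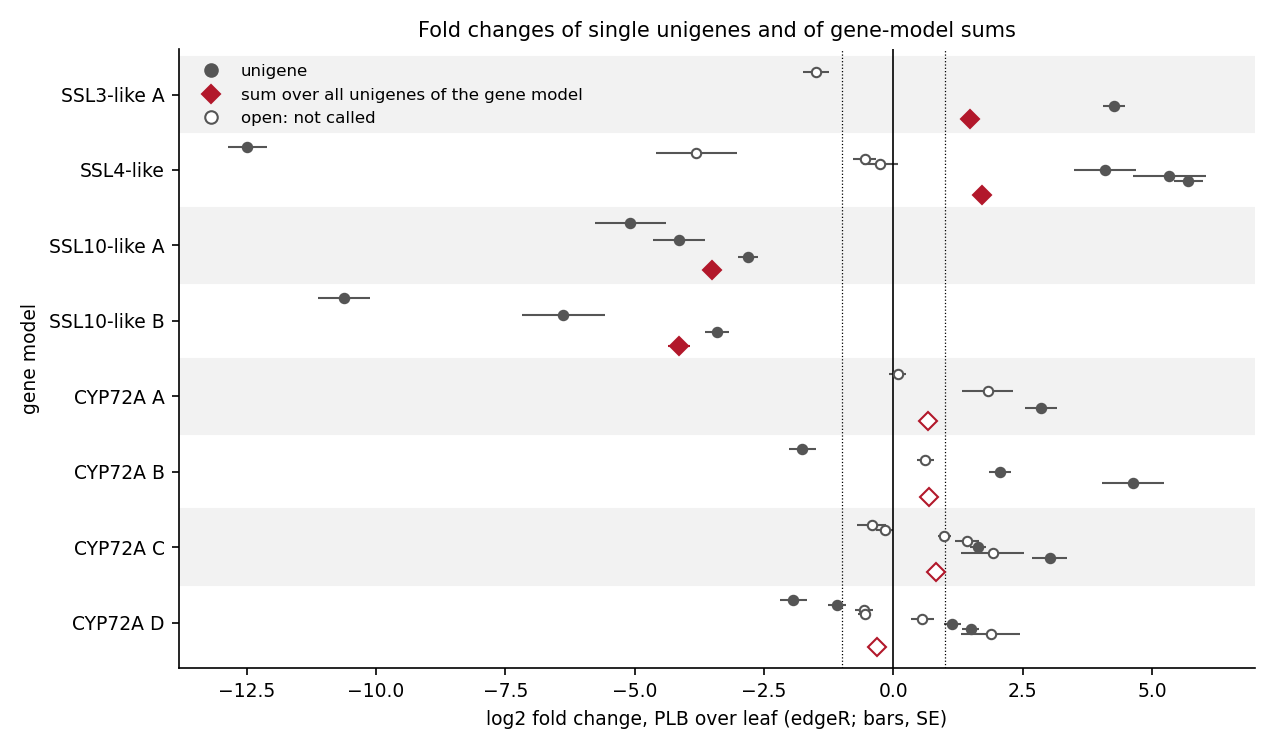
Log2 fold change of PLB over leaf with its SE for the tested unigenes (circles) of 8 gene models and for the sum over each gene model (diamonds), with open symbols for those not called and dotted lines at a log2 fold change of 1 in either direction. Unigenes of SSL3-like A, SSL4-like and CYP72A B to D lie on both sides of 0 and the sums lie between them, while the tested SSL10-like unigenes of A and B lie left of 0; the leftmost unigenes of SSL4-like and SSL10-like B had 0 counts in PLBs, so that their plotted position depends on the prior count of the fit.

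The SSL5-like gene (LOC110100401) had 1 unigene, Unigene25758, with 11.2, 19.5 and 15.2 FPKM in PLBs and 26.9, 27.1 and 27.9 FPKM in leaves. All PLB libraries were lower and varied more, and the difference was not called (log2 fold change -1.14 ± 0.22, adjusted p = 0.00246). DESeq2 called it (adjusted p = 2.86e-05), as did the fit without PLB replicate 2, the highest PLB library (adjusted p = 0.000767). The SSL7-like gene (LOC110103582) had both contigs of cluster CL10288. CL10288.Contig2 had 7.60, 6.56 and 11.1 FPKM in PLBs and 2.48, 2.19 and 2.12 FPKM in leaves and was higher in PLBs (log2 fold change 1.59 ± 0.26, adjusted p = 0.000955), close to the threshold. This call was lost in all 6 fits with 1 library left out (adjusted p up to 0.0067), with RLE size factors, without the filter on low counts and with a filter on mean FPKM (up to 0.00114). CL10288.Contig1 had 3 to 12 counts in PLBs and 4 to 8 in leaves and was not tested.

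The SSL10-like unigenes came from 3 gene models with 11 unigenes, of which 7 were tested. These 7 were lower in PLBs, with log2 fold changes of -2.81 or below, against 22.9% called lower over all unigenes. As unigenes of 3 gene models that can share reads, they are not independent results. Of the 4 SSL10-like unigenes with too few counts to be tested, Unigene45518, CL3892.Contig5 and Unigene25099 had more counts in PLBs than in leaves. Unigene57213 had 0 counts in every PLB library, against 173, 187 and 170 counts (13.96, 15.03 and 14.34 FPKM) in leaves. It was at least 218-fold lower in PLBs by the floor of 3 counts (adjusted p = 3.01e-05) and was called in all 6 fits with 1 library left out. Unigene25101 of the same gene model, SSL10-like B (LOC110108317), had 6, 0 and 0 counts in PLBs and 144, 154 and 132 counts in leaves (log2 fold change -6.38 ± 0.81, adjusted p = 0.000291). The third tested unigene of this model, Unigene25103, had 35, 31 and 24 counts in PLBs and 240, 294 and 243 in leaves. For these 3 tested unigenes all leaf libraries thus lay above all PLB libraries.

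For SSL10-like A (LOC110101620), Unigene25098 had 0.31, 0.21 and 0.00 FPKM in PLBs and 4.77, 4.97 and 4.37 FPKM in leaves (log2 fold change -5.08 ± 0.69, adjusted p = 0.000392). CL3892.Contig6 had 1.04, 0.95 and 1.26 FPKM in PLBs and 6.10, 6.11 and 6.16 FPKM in leaves, and Unigene25100 lay between 0.12 and 0.61 FPKM in PLBs and between 4.92 and 6.68 FPKM in leaves. For SSL10-like C (LOC110094069), Unigene44010 had 4, 1 and 1 counts in PLBs and 46, 33 and 28 in leaves (log2 fold change -4.37 ± 0.59, adjusted p = 0.000389). These levels in PLBs were near the limit of detection, and several calls depended on single libraries. With 1 library left out, the call held for Unigene25098 only without PLB replicate 3, for Unigene44010 only without PLB replicate 1 and for Unigene25101 only without PLB replicate 1 or 3, with adjusted p up to 0.00274, 0.00249 and 0.00221 in the fits that lost it. Unigene25100 lost it without PLB replicate 2 or any leaf library (up to 0.00181), while CL3892.Contig6, Unigene25103 and Unigene57213 were called in all 6 fits.

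Summed over gene models, SSL10-like A had 77, 67 and 61 counts in PLBs and 610, 666 and 601 in leaves (log2 fold change -3.50 ± 0.13, adjusted p = 8.34e-07). SSL10-like B had 54, 39 and 29 counts in PLBs and 557, 646 and 546 in leaves (log2 fold change -4.15 ± 0.21, adjusted p = 2.16e-06). Both sums were called in all 6 fits with 1 library left out. The cluster CL3892, whose other 6 contigs carry response regulator names, was less different in counts (log2 fold change -1.18 ± 0.15, adjusted p = 0.000144). Its summed FPKM did not show this decrease, with 8.69, 9.91 and 10.99 in PLBs and 9.18, 8.38 and 8.43 in leaves, which overlapped. The call of the cluster was lost with scaling by library size only (log2 fold change -0.83) and without leaf replicate 1, 2 or 3 (adjusted p up to 0.00149). SSL10-like C, with 19, 18 and 7 counts in PLBs and 47, 34 and 32 in leaves, was not called as a sum (log2 fold change -1.66 ± 0.42, adjusted p = 0.00702), since its second unigene, Unigene45518, had 15, 17 and 6 counts in PLBs and 1, 1 and 4 in leaves and was not tested alone.

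SSL13 (LOC110098090) had 4 short unigenes, none of which was tested. In Arabidopsis, SSL13 is known as LAP3, a protein needed for the pollen wall. All 4 had 0 counts in PLBs, and summed over the gene model there were 8, 7 and 9 counts in leaves. The other 3 unigenes of the SSL10-like B gene were too low to be tested, CL3892.Contig5 with 5 to 8 counts in PLBs and 0 to 1 in leaves, Unigene25099 with 0 counts in leaves, and Unigene25102 with 11 counts in 1 leaf library only.

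The last unigene of the family, Unigene5203, matched in SwissProt only. Its NR, KEGG and Pfam annotation named N-alpha-acetyltransferase 35, a subunit of the NatC complex that acetylates protein N-termini. It had 3.38, 2.37 and 3.50 FPKM in PLBs and 0.28, 0.35 and 0.48 FPKM in leaves and was higher in PLBs (log2 fold change 2.72 ± 0.28, adjusted p = 0.000117). Only the fit without leaf replicate 2 lost the call (adjusted p = 0.00128). The gene model has 4 other unigenes that are no members, and its sum had 1585, 1020 and 1603 counts in PLBs and 515, 501 and 538 in leaves (log2 fold change 1.12 ± 0.16, adjusted p = 0.000396). Without Unigene5203 the family had 14 called unigenes of 19 tested, 5 higher and 9 lower, and the log2 ratio of its summed level was -0.015.

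By gene model, 9 of the 10 strictosidine synthase-like models were tested, and 4 were higher and 3 lower in PLBs. The share of gene models called was 77.8%, against 36.9% of all gene models (16.5% higher and 20.4% lower). Those higher were SSL3-like A, SSL4-like, SSL7-like and the NatC subunit, and those lower were SSL3-like B, SSL10-like A and SSL10-like B. With 1 leaf library left out, 4 models were called, and with 1 PLB library left out 6 or 7. SSL4-like and the 3 lower ones were called in all 6 of these fits. SSL3-like A lost its call without each leaf library (adjusted p up to 0.0014), the NatC subunit without PLB replicate 1 or each leaf library (up to 0.00437) and SSL7-like in every fit but the one without PLB replicate 1 (up to 0.00703). By cluster or single unigene, 15 of 18 tested were called, 6 higher and 9 lower, which is 83.3%, against 40.3% of all (17.4% higher and 22.9% lower). Without leaf replicate 2 there were 9.

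Of the 26 secologanin synthase-like unigenes, 23 were tested. In PLBs, 8 were higher and 3 were lower than in leaves, and 12 were not called. The share called was 47.8%, near the 39.7% of all unigenes, and the median log2 fold change was 1.14. Scaling moved the split. With library size only, 10 were higher and 1 was lower, and limma on log2 FPKM gave the same split. The median log2 fold change over all unigenes was then 0.32 with library size only, in place of 0.00. With 1 library left out, 6 or 7 were called without a PLB library and 2 without a leaf library.

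The summed level was somewhat higher in PLBs. The 26 unigenes together had 367, 405 and 399 CPM in PLBs and 301, 317 and 329 CPM in leaves. All PLB libraries were above all leaf libraries, and the log2 ratio of the means was 0.31, without a test. The ratio was 0.24 with RLE size factors, 0.62 with scaling by library size only and 0.72 for summed FPKM. No unigene dominated the sum. The unigene with the most counts, CL1553.Contig1 in PLBs and CL3508.Contig7 in leaves, held 11.5% of the summed FPKM in PLBs and 21.2% in leaves.

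**Figure D4:**
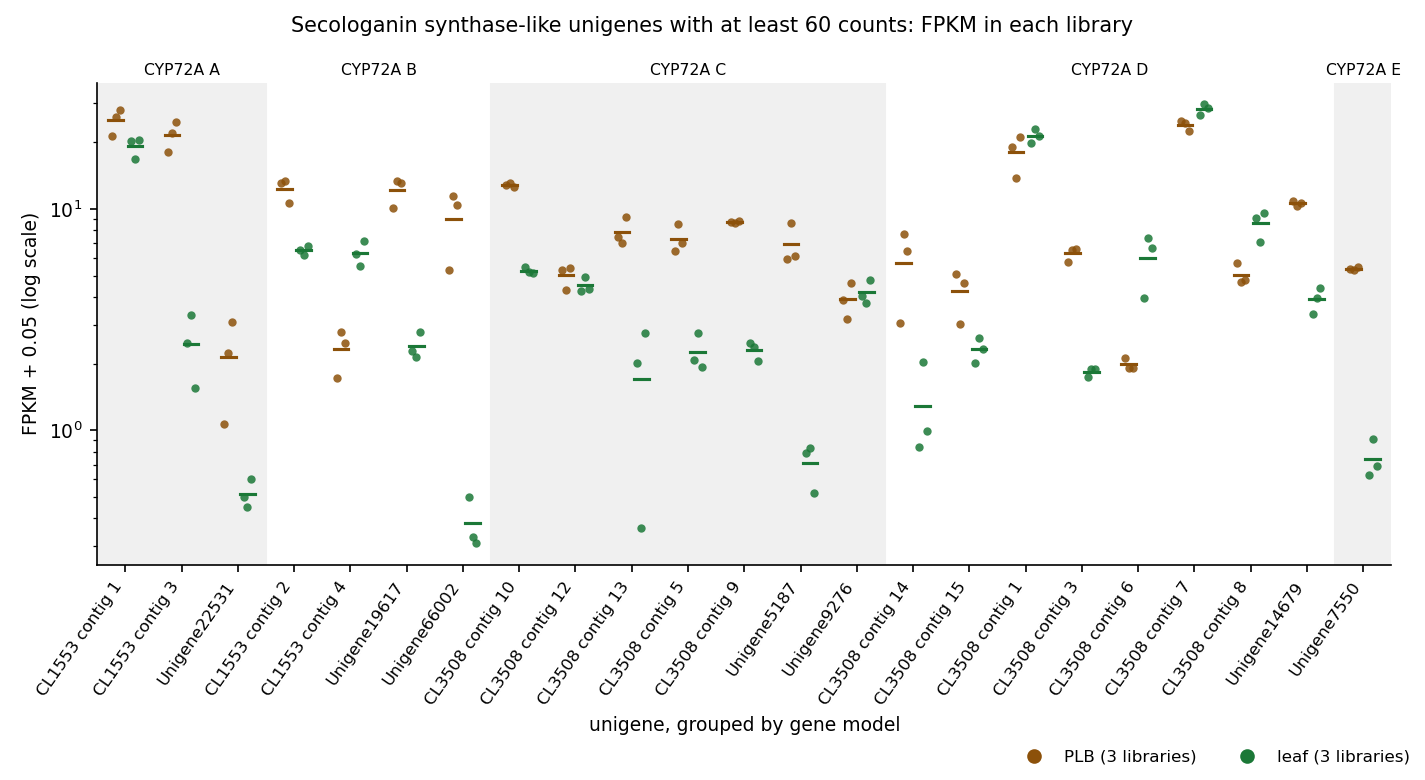
Each point is the FPKM of a library plus 0.05 on a log scale, for the 23 secologanin synthase-like unigenes with at least 60 counts, PLB left of leaf, with the mean as a bar; unigenes are grouped by the 5 gene models CYP72A A to E. Most unigenes are higher in PLBs or overlap, and CL1553.Contig4, CL3508.Contig6 and CL3508.Contig8 are lower in PLBs. CL3508.Contig7 also lies lower in PLBs without overlap, by less, and was not called.

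The 5 gene models were named CYP72A15-like or CYP72A219-like by their nucleotide hits, and are called CYP72A A to E here. CYP72A is the P450 subfamily of the Catharanthus secologanin synthase, and which member, if any, acts on loganin in orchids is not known from these data. CYP72A A (LOC110104696) and CYP72A B (LOC110115270) shared cluster CL1553. CYP72A C (LOC110113799) and CYP72A D (LOC110094269) shared cluster CL3508, and CYP72A E (LOC110113776) had the single Unigene7550 as member.

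In CYP72A A, CL1553.Contig1 had the highest mean FPKM of the family in PLBs, where its libraries overlapped those of CL3508.Contig7 (25.0, 24.4 and 22.4 FPKM). CL1553.Contig1 had 21.4, 26.0 and 28.1 FPKM in PLBs and 20.3, 16.9 and 20.4 FPKM in leaves. All PLB values were higher on the FPKM scale, but on TMM-scaled counts the log2 fold change was 0.08 ± 0.16 (adjusted p = 0.657), and its sign turned without PLB replicate 2 (-0.043) or without leaf replicate 2 (-0.044). CL1553.Contig3 had 18.0, 22.0 and 24.8 FPKM in PLBs and 2.42, 3.27 and 1.51 FPKM in leaves. It was clearly higher in PLBs (log2 fold change 2.86 ± 0.30, adjusted p = 0.000127), a call lost only without leaf replicate 1 (adjusted p = 0.00131). Unigene22531 had 1.02 to 3.05 FPKM in PLBs and 0.40 to 0.55 FPKM in leaves and was not called.

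In CYP72A B, Unigene66002 was a contig of 399 bases whose Pfam domain belongs to a periplasmic transporter and not to a cytochrome P450. It had 5.23, 11.4 and 10.4 FPKM in PLBs and 0.45, 0.28 and 0.26 FPKM in leaves (log2 fold change 4.63 ± 0.60, adjusted p = 0.000327). Unigene19617 had 10.09, 13.32 and 13.03 FPKM in PLBs and 2.24, 2.09 and 2.73 FPKM in leaves (log2 fold change 2.06 ± 0.21, adjusted p = 0.000105). Both were higher in every PLB library. CL1553.Contig4 of the same gene model had 1.68, 2.74 and 2.43 FPKM in PLBs and 6.24, 5.46 and 7.13 FPKM in leaves and was lower in PLBs (log2 fold change -1.76 ± 0.26, adjusted p = 0.000621). CL1553.Contig2 had 13.1, 13.3 and 10.6 FPKM in PLBs and 6.49, 6.18 and 6.73 FPKM in leaves without being called (log2 fold change 0.62 ± 0.17, adjusted p = 0.0105). The call of CL1553.Contig4 was lost in all 6 fits with 1 library left out (adjusted p 0.00112 to 0.00398), that of Unigene66002 in all but the one without PLB replicate 1 (up to 0.00323), and that of Unigene19617 without leaf replicate 1 or 2 (up to 0.00130).

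The sums of the cluster and the gene models were less different than their unigenes. Cluster CL1553 had 1742, 2073 and 2059 counts in PLBs and 1240, 1102 and 1202 in leaves and was not called (log2 fold change 0.39 ± 0.13, adjusted p = 0.0245). The gene-model sums of CYP72A A and CYP72A B were not called either, with log2 fold changes of 0.68 ± 0.14 (adjusted p = 0.0028) and 0.69 ± 0.13 (adjusted p = 0.00182). CYP72A B would pass with scaling by library size only (log2 fold change 1.01, adjusted p = 0.000123).

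CYP72A C had 9 member unigenes, of which 7 were tested, with 2 higher in PLBs, 0 lower and 5 not called. Over all unigenes, 16.8% were higher and 22.9% lower. Unigene5187 had 5.92, 8.59 and 6.09 FPKM in PLBs and 0.74, 0.78 and 0.47 FPKM in leaves (log2 fold change 3.02 ± 0.34, adjusted p = 0.000176), and lost its call without leaf replicate 1, 2 or 3 (adjusted p up to 0.0015). CL3508.Contig9, 1 of the 2 unigenes with secologanin synthase as SwissProt hit, had 8.71, 8.56 and 8.76 FPKM in PLBs and 2.43, 2.32 and 2.01 FPKM in leaves and was higher in PLBs (log2 fold change 1.63 ± 0.16, adjusted p = 8.54e-05), a call lost without leaf replicate 2 or 3 (up to 0.00107). The other, Unigene9276, had 3.84, 3.15 and 4.59 FPKM in PLBs and 3.99, 3.72 and 4.74 FPKM in leaves, which overlapped. Of the pair, 1 was thus called and 1 was not, and the difference between them was not tested.

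CL3508.Contig10, the most abundant unigene of CYP72A C, had 12.75, 13.02 and 12.50 FPKM in PLBs and 5.41, 5.13 and 5.08 FPKM in leaves. Its PLB values were all higher, with a log2 fold change of 0.98 ± 0.12 (adjusted p = 0.000298), just under the minimum fold change of 2. It was called with scaling by library size only (log2 fold change 1.30), by limma on log2 FPKM (1.28 and 1.15) and without PLB replicate 3 (1.02). The remaining tested unigenes of the gene model, CL3508.Contig5, CL3508.Contig12 and CL3508.Contig13, were not called, although CL3508.Contig5 was called by DESeq2, limma and with library size only (log2 fold change 1.36 to 1.73), and CL3508.Contig16 and Unigene57598 were not tested, the second with 0 counts in all 6 libraries. As a sum, which includes 1 unigene that is no member, CYP72A C had 2404, 2491 and 2438 counts in PLBs and 1130, 1129 and 1069 in leaves. This difference had a low adjusted p (9.13e-05) but a log2 fold change of 0.83 ± 0.09, under the minimum, and 1.15 with scaling by library size only.

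CYP72A D had 8 unigenes, all tested, with 2 higher in PLBs, 2 lower and 4 not called. Over all unigenes, 16.8% were higher and 22.9% lower. CL3508.Contig7 was the most abundant unigene of the family in leaves and had 25.0, 24.4 and 22.4 FPKM in PLBs and 26.5, 29.7 and 28.6 FPKM in leaves (log2 fold change -0.55 ± 0.13, adjusted p = 0.00545). CL3508.Contig1 had 19.1, 13.7 and 21.1 FPKM in PLBs and 19.9, 22.9 and 21.4 FPKM in leaves, which overlapped (log2 fold change -0.57 ± 0.17, adjusted p = 0.0176). Neither was called. CL3508.Contig6 had 2.08, 1.87 and 1.86 FPKM in PLBs and 3.91, 7.32 and 6.62 FPKM in leaves, and CL3508.Contig8 had 5.64, 4.61 and 4.73 FPKM in PLBs and 9.04, 7.08 and 9.58 FPKM in leaves.

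Both of these were lower in PLBs, CL3508.Contig6 with a log2 fold change of -1.93 ± 0.27 (adjusted p = 0.00042) and CL3508.Contig8 with -1.09 ± 0.17 (adjusted p = 0.000723). With 1 library left out, CL3508.Contig6 was called only without leaf replicate 1, the lowest leaf library, and CL3508.Contig8 in none of the 6 fits (adjusted p up to 0.00281 and 0.00434). Limma on log2 FPKM called neither (adjusted p 0.00106 to 0.00548), and CL3508.Contig8 was also not called with scaling by library size only (log2 fold change -0.77). Higher in PLBs were CL3508.Contig3, with 5.70, 6.51 and 6.56 FPKM in PLBs and 1.69, 1.85 and 1.84 FPKM in leaves, and Unigene14679, with 10.9, 10.3 and 10.6 FPKM in PLBs and 3.31, 3.92 and 4.36 FPKM in leaves. Their log2 fold changes were 1.49 ± 0.17 (adjusted p = 0.000164) and 1.14 ± 0.17 (adjusted p = 0.000546). CL3508.Contig3 lost its call without leaf replicate 1, 2 or 3 (adjusted p up to 0.00189), and Unigene14679 in all 6 fits with 1 library left out (up to 0.00475) and without the filter on low counts (0.00111). Tested among the clusters and single unigenes, Unigene14679 was called without PLB replicate 1 or 3 and not in the other 4 fits with 1 library left out (adjusted p up to 0.00262).

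As a sum, CYP72A D had 3031, 2700 and 2906 counts in PLBs and 2680, 3038 and 2925 in leaves. On TMM-scaled counts its log2 fold change was -0.31 ± 0.10 (adjusted p = 0.025), not called, and 0.01 with scaling by library size only. Cluster CL3508, which joins CYP72A C and D with 5 further contigs, among them pentatricopeptide repeat genes, had 5357, 5099 and 5322 counts in PLBs and 4030, 4386 and 4118 in leaves. Its log2 fold change was -0.01 ± 0.11 (adjusted p = 0.965). The libraries of the 2 tissues overlapped in CPM, although 4 of its member contigs were called. CL3508.Contig14 and CL3508.Contig15 of CYP72A D were higher in PLBs in FPKM without being called (adjusted p = 0.018 and 0.0567), and CL3508.Contig18, which has no gene model, had 2 to 3 counts in PLBs and 0 to 2 in leaves and was not tested.

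CYP72A E was the gene model of the family that was called. Its member Unigene7550 had 5.30, 5.24 and 5.41 FPKM in PLBs and 0.58, 0.86 and 0.64 FPKM in leaves. All PLB libraries lay together and far above the leaves (log2 fold change 2.63 ± 0.27, adjusted p = 0.000112). The call of the unigene was lost without leaf replicate 1 or 3 (adjusted p up to 0.00122). The sum of the gene model, which includes 1 unigene that is no member, was higher in PLBs (log2 fold change 2.30 ± 0.22, adjusted p = 4.59e-05) and was called in all 6 fits with 1 library left out.

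By gene model, 1 of 5 was called, 20.0%, against 36.9% of all gene models. By cluster or single unigene, 5 of 9 tested were higher in PLBs and 0 were lower, and these 5 were all single unigenes, namely Unigene14679, Unigene19617, Unigene5187, Unigene66002 and Unigene7550. The share was 55.6%, against 40.3% of all. Without any of the leaf libraries 3 were called, namely Unigene19617, Unigene5187 and Unigene7550. With 0.05 as the limit and no minimum difference, 7 were higher and 0 were lower, and DESeq2 gave 5 higher and 0 lower. Over both families, members were called in both directions in 3 of the 11 gene models with 2 or more members, namely SSL4-like, CYP72A B and CYP72A D. The share of such gene models over the whole assembly was not determined. This count can therefore not be read as a trait of the 2 families.

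Other enzymes of terpenoid indole alkaloid synthesis were read from the same fit. Of 15 enzyme terms, 6 matched the descriptions of 131 unigenes, and 99 of these were tested. Of these, 14 were higher and 29 lower in PLBs, a share of 43.4%, near the 39.7% of all unigenes. The other 9 terms, among them iridoid synthase, loganate O-methyltransferase, strictosidine beta-glucosidase and vinorine synthase, matched no description by these words. This does not show that such genes are absent. By protein sequence search, the paper reports putative genes for loganate O-methyltransferase, strictosidine beta-glucosidase and vinorine synthase.

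In the iridoid branch, which leads to secologanin, the most abundant unigene for geraniol 8-hydroxylase, the P450 that hydroxylates geraniol, was CL4594.Contig1. It had 22.2, 16.5 and 12.6 FPKM in PLBs and 39.1, 37.6 and 39.1 FPKM in leaves and was lower in PLBs (log2 fold change -1.49 ± 0.21, adjusted p = 0.00043). This call was lost with scaling by library size only and with limma at a pseudocount of 0.1 (adjusted p 0.0014 and 0.00141), and without PLB replicate 2 or any of the leaf libraries (up to 0.00294). Of the 9 tested unigenes of this enzyme, 4 were lower and 0 were higher, a share of 44.4%, against 39.7% of all unigenes. CL2128.Contig8, named for 7-deoxyloganetic acid glucosyltransferase, which adds glucose to the iridoid, had 3.86, 4.39 and 2.38 FPKM in PLBs and 63.0, 72.4 and 64.3 FPKM in leaves. It was lower in PLBs (log2 fold change -4.54 ± 0.26, adjusted p = 1.03e-05), while of the 33 tested unigenes with this name 7 were higher and 9 lower, a share of 48.5%.

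CL5222.Contig1 was 8-hydroxygeraniol dehydrogenase in SwissProt and an uncharacterized protein in NR. It had 85.2, 67.7 and 61.2 FPKM in PLBs and 54.8, 55.5 and 56.4 FPKM in leaves and was not called (log2 fold change 0.05 ± 0.15, adjusted p = 0.775). CL1413.Contig2, geraniol synthase in SwissProt and terpene synthase 10-like in NR, had at most 2.28 FPKM in any library. None of the 3 unigenes matched to geraniol synthase was tested. Unigene32818, the most abundant unigene with tryptophan decarboxylase in its KEGG name but of unknown function in NR, had 31.0, 33.7 and 30.8 FPKM in PLBs and 38.7, 36.7 and 35.0 FPKM in leaves (log2 fold change -0.52 ± 0.13, adjusted p = 0.00701), not called. For the downstream enzyme tabersonine 16-hydroxylase, the most abundant unigene was Unigene16984, which has this name in SwissProt but is cytochrome P450 71A9 in NR. It had 7.07, 7.53 and 6.71 FPKM in PLBs and 0.00, 0.00 and 0.23 FPKM in leaves. Unigene16984 was higher in PLBs (log2 fold change 6.13 ± 0.83, adjusted p = 0.000397). With 1 library left out it was called only without leaf replicate 3, the only leaf library above 0 (adjusted p up to 0.00247 in the others). Of the 10 tested unigenes with this name, 1 was higher and 5 were lower, a share of 60.0%. For tryptophan decarboxylase, 6 of the 45 tested unigenes were higher and 10 lower, a share of 35.6%. Over all unigenes the share was 39.7%.

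Outside the members, 12 further unigenes carried a CYP72 name in an annotation. Of the 6 tested, 1 was higher in PLBs and 0 were lower, a share of 16.7%, against 39.7% of all unigenes. The higher one was CL14545.Contig7, which NR names as another P450 and which matched only through a SwissProt gene name. It had 81.9, 85.6 and 85.3 FPKM in PLBs and 0 counts in all leaf libraries. Outside the members, 0 unigenes were named adipocyte plasma membrane-associated protein in NR or SwissProt.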

How the data were processed

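The authors assembled the reads of 6 libraries with Trinity and Tgicl. The authors deposited, for each library, expected counts, in which a read that matched several contigs is divided among them, TPM, which was not used, and FPKM. Per the labels, the processing notes list Bowtie2 2.2.5, RSEM 1.2.8 and DESeq2. A deposited series table holds the annotation and the authors' own comparison (fold changes, p and q), whose values were not used.

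Expected counts were rounded and tested with edgeR 4.0.16 in R 4.3.3 (filterByExpr, TMM, quasi-likelihood F test, Benjamini-Hochberg adjustment over all features). Calls needed an adjusted p of 0.001 or less and a 2-fold difference. The SE was taken from the log2 fold change and its F statistic. Counts were also summed per cluster and, as chosen after the data had been seen, per gene model. Leaving out Unigene5203, and running the alternatives on members outside the naming rule, were chosen then too. Against a tissue at 0 counts, a floor of 3 counts over its libraries was used, which covers counting error only. Biological coefficients of variation were 0.337 for unigenes, 0.245 for clusters and 0.207 for gene models. TMM factors were 1.07 to 1.14 in PLBs and 0.892 to 0.903 in leaves, so FPKM ratios can lie above fitted fold changes. Replicates of a tissue differed by more than sampling noise, and more so in PLBs. Chi-square per degree of freedom between 2 replicates was 16.5 to 19.4 in PLBs and 5.2 to 6.2 in leaves.

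Alternatives were DESeq2 1.42.0, RLE size factors, library size only, no filter, a mean FPKM of at least 1, a limit of 0.05 with no minimum difference, limma 3.58.1 on log2(FPKM + 0.1) or log2(FPKM + 1), a single annotation source, and each library left out. Members and lists were chosen with earlier results of these data known. Named by rule were the STR unigene and its cluster partner, per family the 6 unigenes of highest mean FPKM, the 5 largest called changes each way with at least 60 counts in the higher tissue, the 6 largest clusters or single unigenes and the clusters called both ways, and per companion enzyme the unigene of highest mean FPKM. Other members are named to account for all, after their values were seen. The ending _All is left out of unigene names. Python 3.11.15, pandas 2.3.3 and matplotlib 3.10.9 were used for tables and figures.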

Additional observations from a re-analysis of the deposited data

How the results depend on the processing

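No paired analysis was possible because nothing in the labels ties a PLB library to a leaf library: the replicate numbers follow accession order within each tissue and are names only. With 1 library left out, 11278 to 17822 unigenes were called over all unigenes, 8 to 13 strictosidine synthase-like and 2 to 7 secologanin synthase-like unigenes, 9 to 14 and 3 to 5 of their clusters and single unigenes, and 4 to 7 and 1 of their gene models. The summed level had a log2 ratio of -0.02 to 0.04 for the first family and 0.27 to 0.35 for the second. Over all unigenes, 11278 to 12720 were called without a leaf library and 16788 to 17822 without a PLB library. These fits had fewer samples, and replicates differed more among PLBs than among leaves. The part of either in the number of calls was not tested. With 0.05 as the limit and no minimum difference, 51359 unigenes, 19 secologanin synthase-like unigenes and 5 gene models of that family were called. With library size only, 3 of these gene models were called. With SwissProt descriptions alone, the secologanin synthase-like members called were 1 unigene and 0 of 2 clusters or single unigenes tested in edgeR, and the log2 ratio of their sum was 1.18. KEGG descriptions alone matched 0 members and gave no value. The log2 ratio of the strictosidine synthase-like sum was 0.34 with library size only, -0.047 with RLE, 0.44 for FPKM and 0.66 without the unigene with the most counts. For the secologanin synthase-like sum it was 0.62 with library size only, 0.24 with RLE, 0.72 for FPKM and 0.44 without the unigene with the most counts. Some values near 0 turned in sign. CL5222.Contig1 had -0.022 with DESeq2 and with RLE and -0.0066 with the FPKM filter, cluster CL3508 had 0.34 with library size only and 0.008 without the filter, and CYP72A D had 0.0088 with library size only. CL14116.Contig1 had 0.065 and CL3508.Contig12 had 0.16 with library size only, and 0.046 and 0.15 with limma on log2(FPKM + 0.1) and 0.037 and 0.12 on log2(FPKM + 1). With 1 library left out, CL5222.Contig1 ranged from -0.071 to 0.16, CL1553.Contig1 from -0.044 to 0.20 and cluster CL3508 from -0.067 to 0.027. Library size only also lost the call of CL1553.Contig4 (adjusted p = 0.00133). The cause of these changes was not tested. The other named unigenes, clusters and gene models kept their direction in these alternatives. Unigenes with few counts in both tissues were not tested, and this depth does not show that they are equal.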
